A study of Mus musculus with 4 samples.

Results

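The interleukin 1 family genes and the inflammasome genes that process their products were followed in flow-sorted mouse liver macrophages. The set was chosen by symbol, and its 10 members were Il1a, Il1b, Il18, Il1rn, Il18bp, Il1r2, Il1rap, Nlrp3, Pycard and Casp1. All 10 were matched by Ensembl identifier among the 29247 gene rows of the count table, and all 10 passed the filter on low counts that left 18715 genes for testing.

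The study sequenced messenger RNA of macrophages sorted from the liver of C57BL6J mice aged 8 weeks. One group had 3 libraries of Cxcr4+ macrophages, sorted 72 h after mice received acetaminophen (APAP, 300 mg/kg in saline, given intraperitoneally), and the other had 1 library of control macrophages. APAP is an analgesic that kills hepatocytes at high doses. The labels give a Cxcr4+ sort for the APAP cells but no gate, sex or vehicle injection for the control, so the APAP injection and the sort cannot be told apart. Nothing in them says that the 3 APAP libraries are separate animals. The p-values therefore reflect only how these libraries vary, and that variation may be technical.

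Total read counts were between 48282283 and 56702837 per APAP library and 49950909 in the control. Cxcr4, the sort marker, stood at 84.5 to 132 CPM after APAP and at 41.3 CPM in the control, in the direction of the labels. CPM is a read count scaled to a common library size, with library totals adjusted by trimmed mean of M-values (TMM). The macrophage marker Adgre1 was at 1196 to 1567 CPM after APAP and at 2059 CPM in the control, so the labelled cell type was present in all 4 libraries. Summed macrophage markers (4 of 6 lower, 1 higher) were 9347 to 12020 CPM after APAP and 20970 CPM in the control. Markers of other cells moved with the groups too. These marker counts stand beside 25.4% of all genes tested called higher and 18.9% called lower. Summed Kupffer cell markers (5 of 6 genes lower, 0 higher) were 11810 to 14630 CPM after APAP and 29170 CPM in the control, with Clec4f at 3846 ± 965 (SD, n = 3) against 13080 CPM. Summed monocyte markers (6 of 6 higher) were 602.8 to 772.8 CPM against 30.8 CPM, with Chil3 at 0 counts in the control, and Ccr2 was at 262 ± 35.5 against 10.8 CPM. All 5 conventional dendritic cell markers were higher, and 3 of 6 sinusoidal endothelial markers were lower and 1 higher. Of 5 plasmacytoid dendritic cell markers, 4 were higher and 1 lower, with Siglech at 0 counts in the control. Of 6 stellate cell and fibroblast markers, 2 were higher and 3 lower. Summed hepatocyte markers (6 of 7 lower) were 233 to 388 CPM against 785 CPM. The part of any of these cells in the values below was not tested, and in sorted bulk RNA fewer cells of a type and less RNA per cell cannot be told apart.

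Interleukin 1 alpha and interleukin 1 beta are alarm cytokines that act through the same receptor, and interleukin 18 is a relative that drives interferon gamma production by lymphocytes. Interleukin 1 beta and interleukin 18 are made as inactive precursors. The NLRP3 inflammasome, in which the sensor NLRP3 binds the adaptor ASC (Pycard) and recruits caspase 1, cleaves them into active forms. The family carries its own brakes: a receptor antagonist (Il1rn), a decoy receptor (Il1r2) and a soluble protein that captures interleukin 18 (Il18bp). In the liver, macrophages are known as a main source of interleukin 1 beta.

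The sequences upstream of Il1b, the member with the largest fall, and of Casp1, the gene of the protease that matures its product, are shown because both fell in the APAP libraries. Both come from RefSeq tables of build GRCm38.p6, whereas mm39 is the build named in the submitters' processing notes. They are written 5′ to 3′ in the direction of transcription, and end before the transcript. The Il1b window is chr2:129371165-129371389 on the minus strand and the Casp1 window is chr9:5298267-5298516 on the plus strand. Capitals mark matches to the letters of 4 motifs on either strand, C/EBP (TTNCNNAA), NF-kB (GGG and CC with any 5 bases between them), PU.1 (GAGGAA) and AP-1 (TGANTCA), and to the TATA box (TATAAA) on the transcribed strand.
Il1b: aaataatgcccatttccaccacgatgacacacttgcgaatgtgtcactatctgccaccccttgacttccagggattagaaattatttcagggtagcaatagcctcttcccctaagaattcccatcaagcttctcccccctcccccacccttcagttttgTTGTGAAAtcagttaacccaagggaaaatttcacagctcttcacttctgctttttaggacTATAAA
Casp1: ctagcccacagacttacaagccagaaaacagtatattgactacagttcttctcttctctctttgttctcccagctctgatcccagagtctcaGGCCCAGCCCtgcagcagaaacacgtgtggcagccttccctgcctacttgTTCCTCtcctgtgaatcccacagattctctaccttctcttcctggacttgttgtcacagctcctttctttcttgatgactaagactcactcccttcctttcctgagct

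The Il1b window held 1 C/EBP match and 1 TATAAA match at its last bases, and the Casp1 window held 1 NF-kB match and 1 PU.1 match. Among all 32851 windows of 250 bases upstream of a start in the RefSeq table, 36.8% held the C/EBP letters and 7.59% held TATAAA. The 10 members have 13 such windows, since some have more than 1 start. The C/EBP letters were in 8 of these 13 windows (Il18bp, Il1a, Il1b, Il1rn, Nlrp3 and Pycard) and TATAAA in 2 (Il1a and Il1b). The NF-kB letters were in 5 of the 13 (Casp1, Il1rap, Il1rn and Nlrp3) and in 45.8% of all windows. The PU.1 letters were in 4 (Casp1, Il1a, Nlrp3 and Pycard) and in 23.3% of all windows, and the AP-1 letters in 2 (Il1a and Il1rn) and in 6.75%. The Il1b window shown is 225 bases long, shorter than the 250 bases counted here, because the bases that lie inside the gene's RefSeq span were left off. Matches may overlap. A match describes the letters in the window and is not a measured binding site.

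Of the 10 members, 6 were lower in APAP Cxcr4+ macrophages, beside 18.9% of all genes tested, and the 10 summed took a smaller share of all counts. That sum rests mostly on Il18bp and Il1b, which held 47.6% and 32.1% of the members' reads in the control. Il1b, Il1rn, Il1a, Casp1, Il18bp and Nlrp3 fell, and Il18, Pycard, Il1rap and Il1r2 did not pass the test. Reads of the 10 members made up 0.0834% to 0.0973% of all counts after APAP and 0.173% of control counts (exact 95% binomial interval 0.172% to 0.174%, counting error only).

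With edgeR's quasi-likelihood test and an adjusted p of 0.05, 6 of the 10 members were lower and 0 were higher, beside 18.9% of all 18715 genes called lower and 25.4% called higher (44.3% in either direction). At an unadjusted p under 0.05 the counts were 6 lower and 1 higher, beside 23.3% and 30.7% of all genes. DESeq2 and limma-voom also called 6 lower and 0 higher. Among all genes, DESeq2 called 18.2% lower and 26.3% higher, and limma-voom 19.5% and 22.1%. The median log2 fold change of the members was -0.61, and that of all genes tested was 0.09. The control lay above every APAP library for 8 members and below every APAP library for 2, where 39.2% and 45.7% of all genes tested did so (84.8% on either side).

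**Figure D1:**
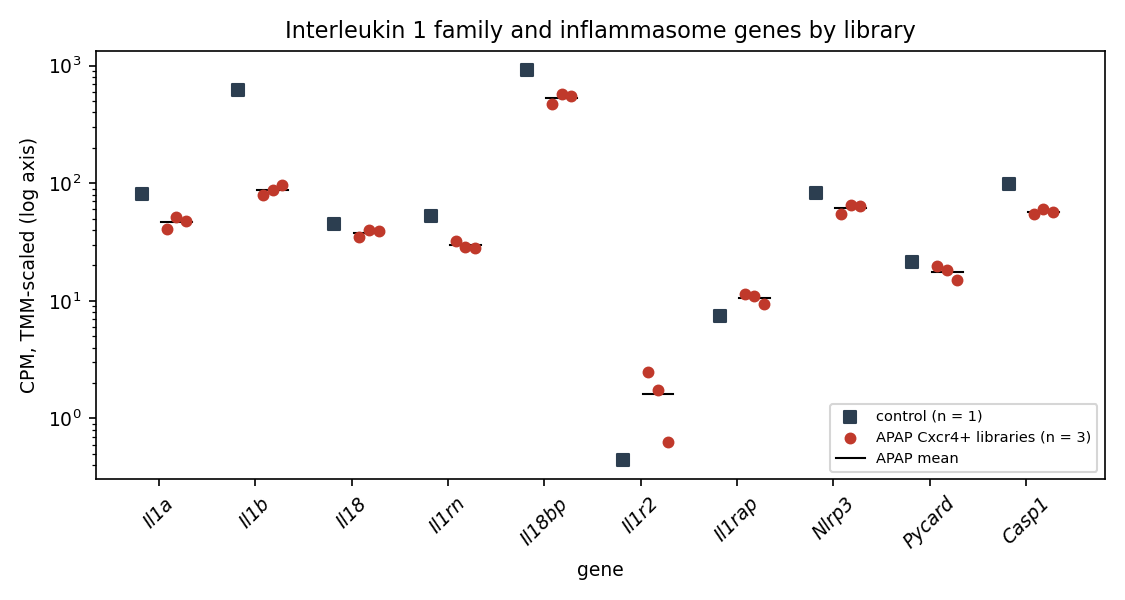
Levels in CPM on a log axis for the 10 genes. Squares are the control library, circles the 3 APAP Cxcr4+ libraries, and bars their mean. The Il1b circles lie between 79.1 and 96.5 CPM, far below the control square at 617 CPM, while the circles of Il18 and Pycard lie close under their squares.

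Il1b, the secreted pro-inflammatory cytokine that needs cleavage by caspase 1, differed most. In the control it stood at 617 CPM, against 79.1, 87.4 and 96.5 CPM after APAP. The 3 APAP libraries lay close together and far from the control. The control level was 7.03 times the fitted APAP level, or -2.81 as a log2 fold change (SE 0.12, adjusted p = 0.000841). Only 0.908% of the genes tested had a lower log2 fold change. Il1b was the sole member called lower when the test asked for more than a 2-fold change (glmTreat), which 1.5% of all genes passed in that direction.

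Il1a, the sister cytokine that is active without caspase 1, was at 40.5, 51.4 and 47.6 CPM after APAP and at 80.3 CPM in the control. All 3 APAP libraries were below the control, by a smaller step than for Il1b. Its log2 fold change was -0.79 (SE 0.14, adjusted p = 0.0078), or 1.73 times higher in the control. The 95% intervals of the log2 fold changes, -1.13 to -0.44 for Il1a and -3.10 to -2.52 for Il1b, do not meet.

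Il18, whose product also matures through caspase 1, was at 34.7, 40.3 and 39.0 CPM after APAP and at 45.2 CPM in the control. The APAP libraries were below the control by little more than their own spread. The log2 fold change of -0.25 did not pass (SE 0.12, adjusted p = 0.128), and its 95% interval ran from -0.54 to 0.04. Its value turned to 0.02 (adjusted p = 0.929) after a correction for transcript length and GC content, which was chosen after the data were seen.

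Among the antagonists, Il1rn, which blocks the interleukin 1 receptor without signalling, was at 32.4, 28.8 and 28.3 CPM after APAP and at 53.0 CPM in the control. Il18bp, the soluble trap for interleukin 18, was at 473, 578 and 547 CPM after APAP and at 914 CPM in the control. For both genes the APAP libraries stayed below the control without overlap. Il1rn fell by 0.83 on the log2 scale (SE 0.11, adjusted p = 0.00357) and Il18bp by 0.78 (SE 0.13, adjusted p = 0.00683). Il18bp supplied the most reads of the 10 genes in all 4 libraries. After APAP it made up 59.0%, 61.3% and 60.5% of the members' reads, against 47.6% in the control (exact interval 47.3% to 47.9%). The share of Il1b was 32.1% in the control (31.8% to 32.4%) and 9.87%, 9.27% and 10.7% after APAP. These are parts of one total, so a smaller Il1b share enlarges the others. The larger share of Il18bp is therefore not a separate change, and its level in CPM fell.

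The receptor genes were the 2 members with positive values. Il1rap, the accessory chain that interleukin 1, interleukin 33 and interleukin 36 receptors share, was at 11.5, 10.96 and 9.47 CPM after APAP and at 7.41 CPM in the control. Every APAP library was above the control, and the log2 fold change was 0.52 (SE 0.18, adjusted p = 0.0603). It passed only without the third APAP library among the alternatives run (0.61, adjusted p = 0.0332). With length and GC content corrected, Il1rap was at 0.241 (adjusted p = 0.3235).

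Il1r2, the decoy receptor that binds interleukin 1 and does not signal, was scarce, with 126, 93 and 37 reads after APAP and 20 in the control. These reads amount to 2.51, 1.73 and 0.631 CPM after APAP and 0.445 CPM in the control, whose 95% Poisson interval of 0.272 to 0.687 CPM (counting error only) includes the level of the third APAP library. The APAP libraries thus differed among themselves more than the lowest of them differed from the control. The log2 fold change was 1.85 (SE 0.85, adjusted p = 0.125), with a 95% interval of -0.24 to 3.95. Without the third APAP library it was 2.26 and passed (adjusted p = 0.00493).

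**Figure D2:**
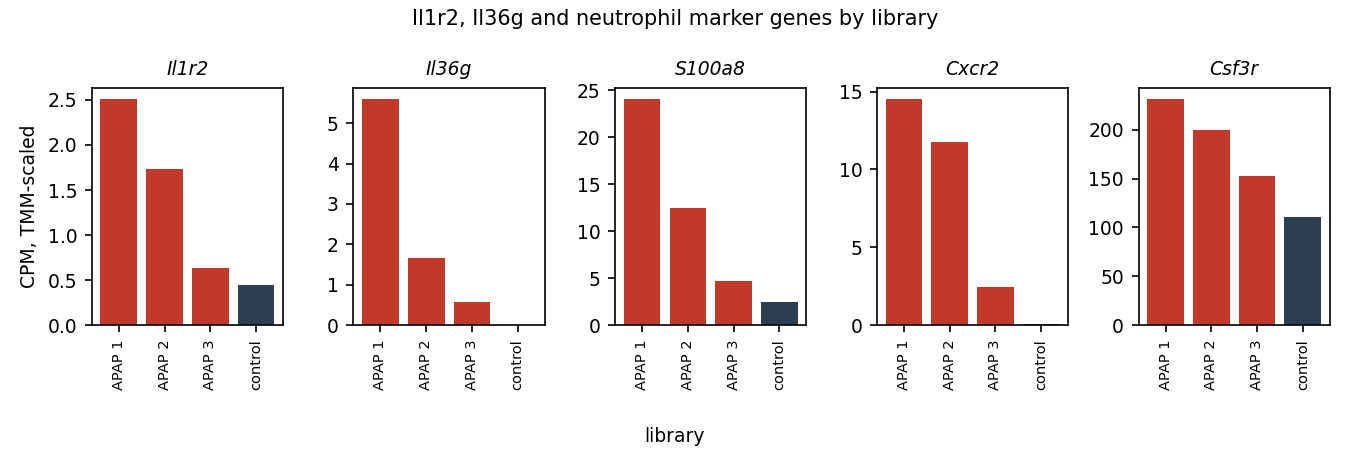
Levels in CPM in each library, on a separate linear axis from 0 for each gene, for Il1r2, Il36g and the neutrophil markers S100a8, Cxcr2 and Csf3r. In all 5 panels the first APAP library is the highest, the third is the lowest of the APAP libraries and the control is lower still. Of the 13 neutrophil markers listed, 5 did not have this order over the APAP libraries and are not drawn.

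Neutrophils are known to carry Il1r2, and some neutrophil markers had the same order over the libraries. S100a8 was at 24.04, 12.5 and 4.69 CPM after APAP and at 2.52 CPM in the control, Cxcr2 at 14.5, 11.8, 2.42 and 0.089 CPM, and Csf3r at 231, 199, 153 and 111 CPM. Of 13 neutrophil markers, 10 were tested and 6 were higher, beside 25.4% of all genes tested. The summed level of the 13 was 214.5 to 395.7 CPM after APAP and 156.5 CPM in the control. Of the 13, 8 had the order of Il1r2 over the APAP libraries, and 6 of these were also lowest in the control, though for Elane and Ly6g the order rests on a few reads. The other 5 did not, among them Retnlg at 4.52, 10.52 and 7.32 CPM and Ltf at 2.23, 0.317 and 1.04 CPM after APAP. Mmp9 was at 40.2 CPM in the control, above the second (38.1 CPM) and the third APAP library (24.6 CPM). Ly6g, Camp, Ltf, Ngp, Elane and Mpo were at 0 counts in the control, and Elane (2, 2 and 0 counts), Mpo (0, 4 and 0) and Ly6g (7, 2 and 2) were near 0 after APAP as well. Retnlg, Ltf and Mmp9 were picked after their values were seen. The part of neutrophil RNA in the Il1r2 values was not tested.

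The inflammasome genes all had negative values, and Casp1 and Nlrp3 passed the test while Pycard did not. Casp1, the protease that cleaves the precursors, was at 54.3, 60.1 and 56.9 CPM after APAP and at 98.5 CPM in the control, with no APAP library near the control. It fell by 0.79 on the log2 scale (SE 0.09, adjusted p = 0.00244), a step close to those of Il1a, Il1rn and Il18bp. Nlrp3, the sensor, was at 54.4, 65.7 and 64.0 CPM after APAP and at 83.3 CPM in the control. It fell by 0.44 (SE 0.13, adjusted p = 0.036), and the call was lost without the second APAP library (-0.49, adjusted p = 0.0716). Pycard, the adaptor between them, was at 19.7, 18.3 and 14.9 CPM after APAP and at 21.5 CPM in the control. Its log2 fold change of -0.29 did not pass (SE 0.18, adjusted p = 0.227), and the 95% interval of -0.72 to 0.15 leaves room for a fall as large as that of Nlrp3.

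**Figure D3:**
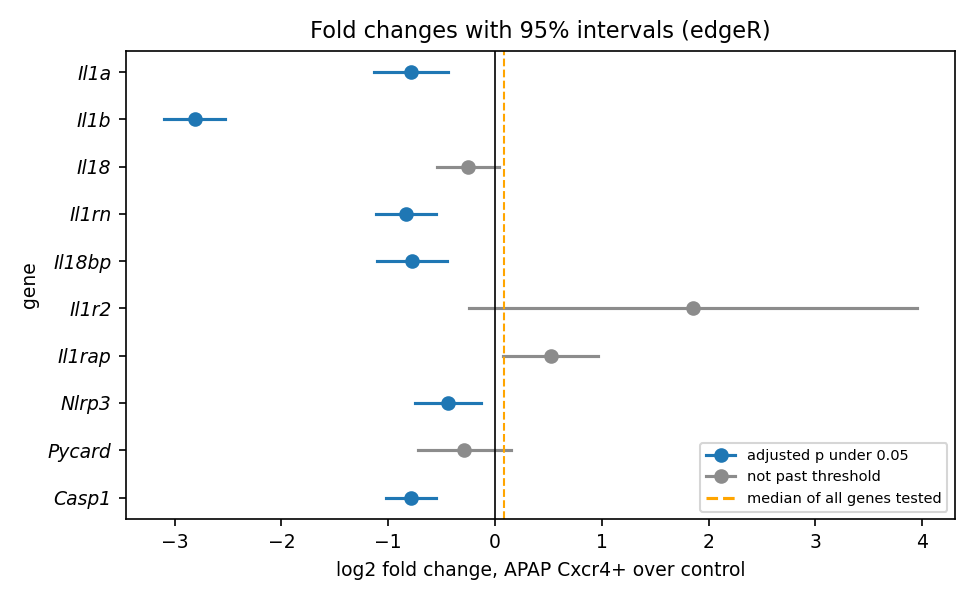
Fitted log2 fold changes of the 10 genes (points) with 95% intervals (lines), APAP Cxcr4+ over control, and the median of all genes tested (dashed line, 0.09). Il1b stands apart at -2.81, Il1a, Il1rn, Il18bp and Casp1 lie between -0.83 and -0.78, and the interval of Il1r2 is the widest.

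Levels were compared between genes per kilobase of transcript, as CPM per kb, with Pycard left out because its annotated transcript is longer than its gene in RefSeq. In the APAP libraries the order of these levels was Il18bp at 334 ± 33.97, Il1b at 64.7 ± 6.42, Il18 at 44.2 ± 3.39, Casp1 at 38.1 ± 1.94, Il1a at 23.6 ± 2.81, Nlrp3 at 15.3 ± 1.52, Il1rn at 12.1 ± 0.918, Il1rap at 2.35 ± 0.229 and Il1r2 at 1.14 ± 0.664 CPM per kb (SD, n = 3). Each gene was above the next in every APAP library, by the least for Nlrp3 over Il1rn in the first (13.5 against 13.1 CPM per kb). In the control, Il1b at 455 CPM per kb was second to Il18bp at 574 CPM per kb, and Casp1 at 65.8 stood above Il18 at 52.6 CPM per kb. Il1rn and Nlrp3 were nearly level there, at 21.4 and 20.7 CPM per kb.

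Ratios of read counts within a library, which do not depend on how libraries are scaled, were used to compare agonist and antagonist genes at the RNA level. They were not corrected for transcript length or GC content. There were 0.41, 0.329 and 0.293 Il1rn reads per Il1b read after APAP and 0.0859 in the control. The log2 ratio was -1.55 ± 0.25 (SD, n = 3) after APAP and -3.54 in the control, 3.97 times higher after APAP. Both genes fell, and the ratio differs because Il1b fell further. The Il1a to Il1b ratio was 0.512, 0.589 and 0.493 after APAP and 0.13 in the control, a log2 difference of 2.02 against an SD of 0.14.

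The Il1rn to Il1a ratio did not separate the groups, at 0.801, 0.559 and 0.594 after APAP and 0.659 in the control, which lay inside the APAP range. Il18bp reads per Il18 read were 13.6, 14.4 and 14 after APAP and 20.2 in the control, a log2 difference of -0.53 against an SD of 0.04. The Il1r2 to Il1b ratio was 0.0317, 0.0198 and 0.00654 after APAP and 0.000722 in the control, a log2 difference of 4.45 against an SD of 1.16. An exact permutation test of 3 libraries against 1 cannot give a one-sided p under 0.25, the value of 4 of the 5 ratios (Il1rn to Il1a gave 0.5), so none can pass.

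**Figure D4:**
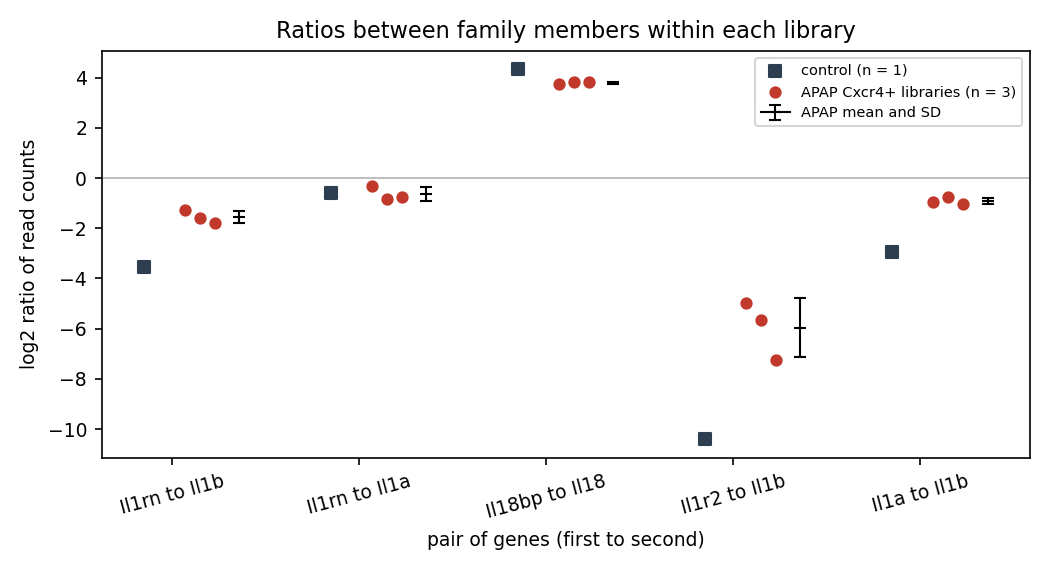
Log2 ratios of read counts between pairs of genes within each library. Squares are the control, circles the 3 APAP Cxcr4+ libraries, and bars their mean with SD. For Il1rn to Il1b, Il1r2 to Il1b and Il1a to Il1b all circles lie above the square, for Il18bp to Il18 all lie below it, and for Il1rn to Il1a they lie on both sides.

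Some members overlap other genes, and the strand setting used in counting was not given. Without strand, reads of a gene and its antisense partner cannot be told apart. Il1bos, the antisense gene at Il1b, had 6, 10 and 13 reads after APAP and 70 in the control, against 3976, 4693 and 5657 Il1b reads after APAP and 27719 in the control. Gm14023, which overlaps Il1a, had 133, 136 and 108 reads after APAP and 40 in the control, against at least 2034 Il1a reads in each library. Bco2, which overlaps Il18, had 624, 835 and 1020 reads after APAP and 1225 in the control, a larger count relative to the 1743 to 2286 Il18 reads of the 4 libraries. Gm16894, which overlaps Il1r2, had 4 reads in each library, against 126, 93 and 37 Il1r2 reads after APAP and 20 in the control. Tex12, which also overlaps Il18, had 6 to 14 reads, and Gm20319, which overlaps Il1rap, had 4 to 11 reads.

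The rest of the pathway went both ways. Of 49 further ligand, receptor, signalling, sensor, caspase and pore genes, 43 were in the table and tested, and 19 were higher and 4 lower (median log2 fold change 0.34), beside 25.4% and 18.9% of all genes tested. After the length and GC correction 11 were higher and 8 lower, beside 19.8% and 16.7% of all genes at that setting. Without the second APAP library 9 were higher and 3 lower, beside 16.2% and 11.03% of all genes. In these libraries fold changes followed transcript length, with a Spearman rho of 0.265 across 18644 genes, which are not independent replicates, against -0.049 to -0.024 between pairs of APAP libraries.

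Among the other ligands, Il36g, an epithelial and myeloid alarm cytokine, had 281, 90 and 33 reads after APAP and 0 in the control. Its level of 2.61 ± 2.64 CPM was at least 39.1-fold higher than the control floor of 3 counts in that library. The call (adjusted p = 0.0465) was lost with limma-voom (adjusted p = 0.235), with a stricter count filter (adjusted p = 0.0632) and without the second APAP library (adjusted p = 0.0762). Without the first APAP library the mean was 16.8 times the floor, and the third library alone was at 8.43 times the floor. Over the APAP libraries Il36g had the order of 8 of the 13 neutrophil markers and not of the other 5. For Elane and Ly6g, which are among the 8, the order rests on a few reads. The part of neutrophil RNA in the Il36g values was not tested. Il33, the ligand of the ST2 receptor, was at 0.239 to 0.444 CPM after APAP and 0.823 CPM in the control and did not pass (adjusted p = 0.105).

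Of 6 further receptors in the table, 3 rose and 0 fell with edgeR (25.4% and 18.9% of all genes), and at an unadjusted p under 0.05 the counts were 5 higher and 0 lower, beside 30.7% and 23.3% of all genes at that p. DESeq2 called 4 higher (26.3% of all genes) and limma-voom 3 (22.1%), and each called 0 lower (18.2% and 19.5% of all genes). Sigirr, an inhibitory member of the receptor family, rose from 0.401 CPM to 4.76, 5.12 and 4.01 CPM (log2 fold change 3.52, SE 0.32, adjusted p = 0.00142). Il18rap, the accessory chain of the interleukin 18 receptor, rose from 0.579 CPM to 7.07, 6.44 and 4.95 CPM, and its partner chain Il18r1 from 1.60 CPM to 3.60, 5.36 and 3.99 CPM (adjusted p = 0.0017 and 0.0168). The signalling receptor Il1r1 was at 1.17 to 1.91 CPM after APAP and 1.40 CPM in the control, which lay inside the APAP range.

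The interleukin 18 receptor chains are known from T cells and NK cells, and markers of lymphocytes were higher in the same libraries. Of 8 T cell markers 5 rose and of 6 NK cell and ILC1 markers 4 rose, beside 25.4% of all genes tested. Their summed levels were 97.3 to 125.8 and 21.9 to 31.6 CPM after APAP and 64.3 and 6.65 CPM in the control. None of these markers was at 0 counts in the control, and their steps varied. Cd3e was at 13.9 ± 1.96 CPM after APAP and 9.24 CPM in the control, Cd8a at 10.7 ± 4.44 against 1.07 CPM, Ncr1 at 2.86 ± 0.263 against 0.356 CPM and Klrd1 at 6.05 ± 1.47 against 0.156 CPM (SD, n = 3). Cd4 was at 23.5 ± 3.32 CPM (SD, n = 3) after APAP and 24.7 CPM in the control. Cd8a, Klrd1 and Cd4 were picked after their values were seen. All 7 B cell markers rose, from a summed 69.2 CPM to 385.8 to 575.8 CPM. The part of lymphocyte RNA in the receptor values was not tested.

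Among 13 receptor adaptors and kinases, 6 rose and 1 fell, beside 25.4% and 18.9% of all genes. After the length and GC correction 3 rose and 2 fell, beside 19.8% and 16.7% of all genes. Without the second APAP library 3 rose and 0 fell, beside 16.2% and 11.03% of all genes. Peli2, a ubiquitin ligase of the receptor complex, rose from 2.60 CPM to 23.5, 21.1 and 22.7 CPM (log2 fold change 3.11, SE 0.16, adjusted p = 0.000841). The ubiquitin ligase Traf6 rose by 0.80 and the kinase Map3k7 (TAK1) by 0.52 on the log2 scale (adjusted p = 0.00249 and 0.00818). With length and GC content corrected, Traf6 was at 0.37 (adjusted p = 0.0281) and Map3k7 at 0.14 (adjusted p = 0.262). Myd88, the adaptor that couples these receptors to their kinases, was at 73.0, 68.6 and 68.5 CPM after APAP and at 98.9 CPM in the control. It fell by 0.50 (SE 0.09, adjusted p = 0.0078), and the call was lost without the second APAP library (adjusted p = 0.0514).

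Among 16 other sensors and triggers of inflammasomes, 9 rose and 1 fell, beside 25.4% and 18.9% of all genes. After the length and GC correction 4 rose and 4 fell, beside 19.8% and 16.7% of all genes. Without the second APAP library 3 rose and 1 fell, beside 16.2% and 11.03% of all genes. Nlrc3, a NOD-like receptor known as a brake on innate signalling, rose from 0.69 CPM to 12.4, 10.7 and 9.37 CPM (adjusted p = 0.00107). Naip6, from the family of flagellin and secretion needle sensors, rose by 1.37 (SE 0.11, adjusted p = 0.00118). With length and GC content corrected, Naip6 was at 0.886 (adjusted p = 0.00387). Its near-identical copies may share reads in a way the counts do not show, so the Naip values are uncertain. P2rx7, the ATP receptor that triggers NLRP3, was at 143, 138 and 145 CPM after APAP and 97.0 CPM in the control (0.55, adjusted p = 0.00573), and at 0.27 with length and GC content corrected (adjusted p = 0.0592). Txnip, a thioredoxin inhibitor that has been linked to NLRP3, fell from 658 CPM to 307, 349 and 418 CPM (-0.88, adjusted p = 0.0101).

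Of 6 other caspases and pore genes, 2 fell and 0 rose with edgeR (18.9% and 25.4% of all genes). The counts were the same at an unadjusted p under 0.05 (23.3% and 30.7% of all genes). Ninj1, which ruptures the plasma membrane in dying cells, fell from 816 CPM to 308, 368 and 351 CPM (-1.25, SE 0.12, adjusted p = 0.00154). With length and GC content corrected, Ninj1 was at -0.844 (adjusted p = 0.00656). Casp4, which encodes mouse caspase 11, the sensor of cytosolic endotoxin, fell from 26.7 CPM to 12.6, 14.7 and 15.1 CPM (-0.92, adjusted p = 0.00531). Both stayed clear of the control in every APAP library. Gsdmd, the pore protein that caspase 1 and caspase 11 cleave, was at 80.0 to 95.6 CPM after APAP and 103 CPM in the control and did not pass (adjusted p = 0.146).

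**Figure D5:**
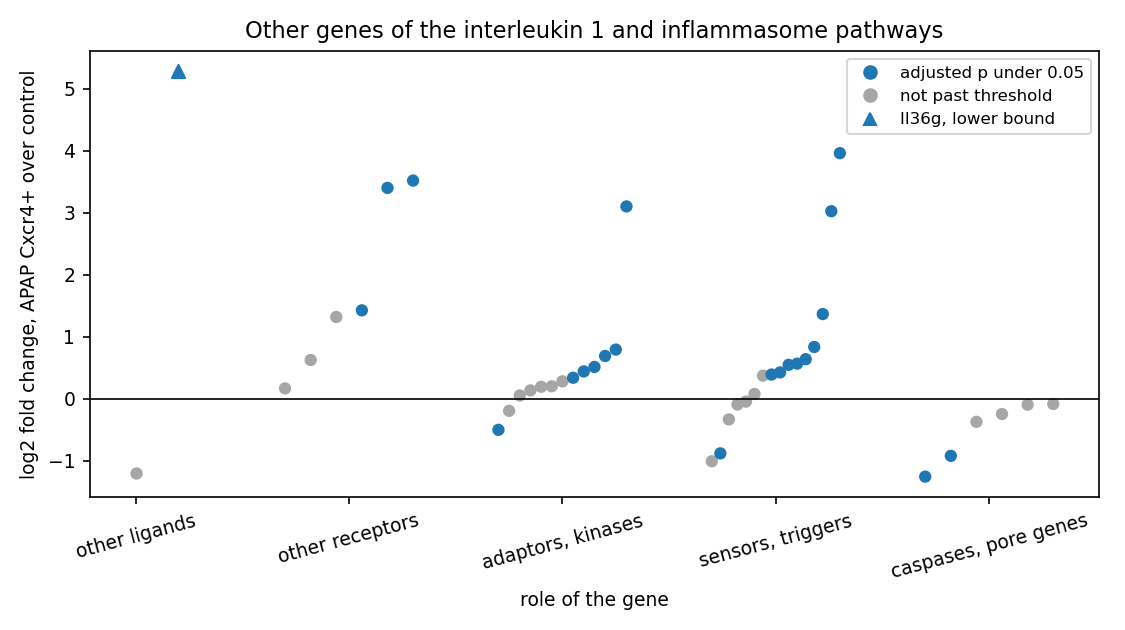
Log2 fold changes, APAP Cxcr4+ over control, of the 43 further pathway genes tested, grouped by role, with 1 point per gene. The triangle, labelled lower bound, is the APAP mean of Il36g over a control floor of 3 counts and leaves out the spread of the APAP libraries. Most receptors, adaptors and sensors lie above 0, and all 6 caspases and pore genes lie below it, of which 2 were called lower. The values are without the length and GC correction, under which 4 of the 43 genes changed sign.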

How the data were processed

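Messenger RNA libraries of sorted liver macrophages were compared, 3 from APAP Cxcr4+ cells and 1 from control cells. The authors deposited raw read counts per Ensembl gene; HISAT2, Subread and build mm39 are named in the submitters' processing notes. The sources used here give no versions, annotation or strand setting. Symbols were matched for 28926 of 29247 identifiers (98.9%). The APAP columns carry no replicate number and were numbered in table order.

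Counts were filtered with filterByExpr (minimum count 10, minimum total 15), scaled by TMM and tested over all 18715 genes with edgeR 4.0.16 in R 4.3.3, with Benjamini-Hochberg adjustment. The control is assumed to vary like the APAP libraries (2 residual degrees of freedom). On simulated counts for 17998 genes the test recovered 44.6% of genes changed 2-fold, 82.5% changed 4-fold and 91.5% changed 8-fold. In the simulation 17811 of these genes were unchanged, whereas 44.3% of genes were called in the data, so recovery may differ in the data. The simulated control varied like the simulated APAP libraries, so the simulation does not check that assumption. Ratios used a pseudocount of 0.5. Lengths and GC content came from GENCODE M21 transcripts (GRCm38).

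Alternatives were DESeq2 (1.42.0) factors and test, upper-quartile factors, other count filters, limma-voom (3.58.1), glmTreat, leaving out each APAP library, and an added length and GC correction (mgcv). Named genes were all members and, per pathway list, every called gene up to 5 or else the 4 smallest p-values, with Cxcr4 and set markers. Il33, Il1r1 and Gsdmd, and the genes that overlap members, were named after their values were seen. The members and lists were chosen with earlier results of these data known. The other 6 of the 49 pathway genes were not analysed here.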

Additional observations from a re-analysis of the deposited data

How the results depend on the processing

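Il1b kept its direction and its call under all 10 alternatives fixed at the start and the added length and GC correction, between -2.87 and -2.63. Il1a, Il1rn, Il18bp and Casp1 did so under all but glmTreat, which lost them and Nlrp3 at the same values (-0.79, -0.83, -0.78, -0.79 and -0.44) and left 1 member lower, 280 genes lower and 1099 higher among all genes, and 0 pathway genes lower and 5 higher. Leaving out each APAP library gave -0.49 to -0.36 for Nlrp3, 1.40 to 2.26 for Il1r2, 0.46 to 0.61 for Il1rap and -0.19 to 0.065 for the log2 Il1rn to Il1a ratio, which changed sign without the second (0.065) or the third (0.022) library. It gave 0 to 2 members higher, 5 to 6 lower, 2022 to 4185 genes lower and 2979 to 5195 higher among all genes, and 9 to 23 pathway genes higher; the counts of 5, 2022, 2979 and 9 came without the second library. A filter of 5 CPM left 3097 genes higher and removed Il1r2. The length and GC correction moved Il18 to 0.017, left 8 pathway genes lower and 11 higher, and turned Nek7 (-0.31, adjusted p = 0.0317), Il1r1 (-0.215), Irak4 (-0.031) and Peli1 (-0.095); Mefv was at -0.171 to 0.009 when each APAP library was left out. Apart from what these settings change by construction, the cause was not tested. No paired analysis was possible because there was a single control library and no label links it to an APAP library. With 20 control reads, Il1r2 is the member that depth limits most.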
